A study of Mus musculus with 23 samples.

Results

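Genes of the motile cilium were followed through 23 RNA-seq libraries of magnetically sorted cortical astrocytes, as a sign of ependymal cells in the preparations. Members were the gene symbols of the count table that start with Dnah, Dnai, Dnaic, Rsph, Spag or Cfap followed by a number, with Foxj1, Ccdc39, Ccdc40, Ccdc153, Tmem212, Hydin, Drc1 and Dnali1 added by name. This gave 57 of the 24411 genes of the table, and each had an entry in the GENCODE M21 annotation of GRCm38 (mm10), such as Foxj1 at chr11:116330704-116335399 (minus strand), Ccdc153 at chr9:44240676-44247306 (plus) and Hydin at chr8:110266977-110610253 (plus). By role, 1 was a transcription factor, 5 were outer and 6 inner dynein arm heavy chains, 3 were dynein intermediate or light chains, 7 belonged to the radial spokes, 9 to the central apparatus and 3 to the axonemal ruler and the nexin-dynein regulatory complex. Another 16 were other cilium and flagellum associated genes, and 7 were sperm-associated antigens (Spag genes) whose products act outside the axoneme.

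Every mouse was a male by its label, homozygous for floxed Aldh7a1, the gene of a lysine-degrading aldehyde dehydrogenase, injected with 4-hydroxytamoxifen at postnatal days 3 and 4 and taken at day 70. ConAstro mice (4 libraries) carried no Cre, and cKOAstro mice (7 libraries) carried Slc1a3-CreER on 1 allele, so that recombination depended on the promoter of Slc1a3, which is active in astrocytes and in radial glia. SFN-fed ConAstro (5 libraries) and SFN-fed cKOAstro mice (7 libraries) had the same genotypes and ate a diet with sulforaphane, an activator of the antioxidant factor NRF2, from day 21, while the other mice ate a control diet. Cells were taken from dissociated cortex with beads against the astrocyte surface antigen ACSA-2, so the preparation was enriched for astrocytes and not pure.

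Some libraries went against their labels. Aldh7a1 stood at 55.7 CPM (read counts scaled to library size with TMM factors), near the level of the deleted animals, in replicate 1 of those labelled SFN-fed ConAstro. At 222 CPM it matched the level of the controls in replicate 2 of those labelled SFN-fed cKOAstro. The library labelled cKOAstro replicate 2 held 1541 CPM of Xist, the RNA that coats the inactive X chromosome, and 0.0077 CPM of the Y-linked gene Ddx3y, whereas Xist was at most 0.71 CPM elsewhere. The median difference of the members in each comparison that holds these libraries is also given without them, whereas group means and correlations are given over all libraries. Totals ran from 46890715 to 391701247 counts, and the members together took 70359 to 943216 of them, so counting error was small beside the spread between mice.

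Motile cilia beat by the sliding of microtubule doublets in the axoneme, driven by outer and inner dynein arms, timed by the radial spokes and the central apparatus, and held together by the nexin-dynein regulatory complex. FOXJ1, a forkhead factor, turns on this programme together with factors of the regulatory factor X (RFX) family. In the brain the ependymal cells that line the ventricles carry tufts of such cilia. Epithelial cells of the choroid plexus carry a related set, whereas astrocytes and neurons bear a single non-motile primary cilium. Intraflagellar transport takes part in building cilia.

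Compared per length of transcript, the members spanned a wide range of levels. The mean over 23 libraries was highest for Spag9 (56.2 CPM per kilobase of exon), which encodes a scaffold for JNK kinases and motor proteins, and nearly as high for Foxj1 (55.9). Ccdc153 (38.9), Tmem212 (36.7) and the radial spoke head gene Rsph1 (29.4) followed. Heavy chains of the dynein arms measured far lower per kilobase, at 4.87 for Dnah6, 3.33 for Dnah10, 3.18 for Dnah9 and 2.74 for Dnah5. At the low end lay Dnah17 (0.13) and Dnah8 (0.069), outer arm heavy chains known from sperm. Among the genes named one by one, neighbours in this order such as Ccdc153 and Tmem212 or Drc1 (7.38) and Ccdc40 (4.63) had overlapping ranges over the libraries.

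Of the 57 members, 54 had enough counts to be tested in the fit of all groups. Rsph6a reached at most 0.21 CPM, Spag11a at most 0.025 CPM and Spag11b had 0 counts, where 3 counts correspond to 0.0077 to 0.064 CPM depending on the library. Spag6l (at most 0.30 CPM) is a near copy of Spag6, and the pairs Dnah7a and Dnah7b and Rsph3a and Rsph3b are also close copies, so the division of reads within each pair is uncertain. Exons of 25 members overlapped another annotated gene, among them Hydin and Ccdc39, and the counting was not stated to use strand.

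**Figure D1:**
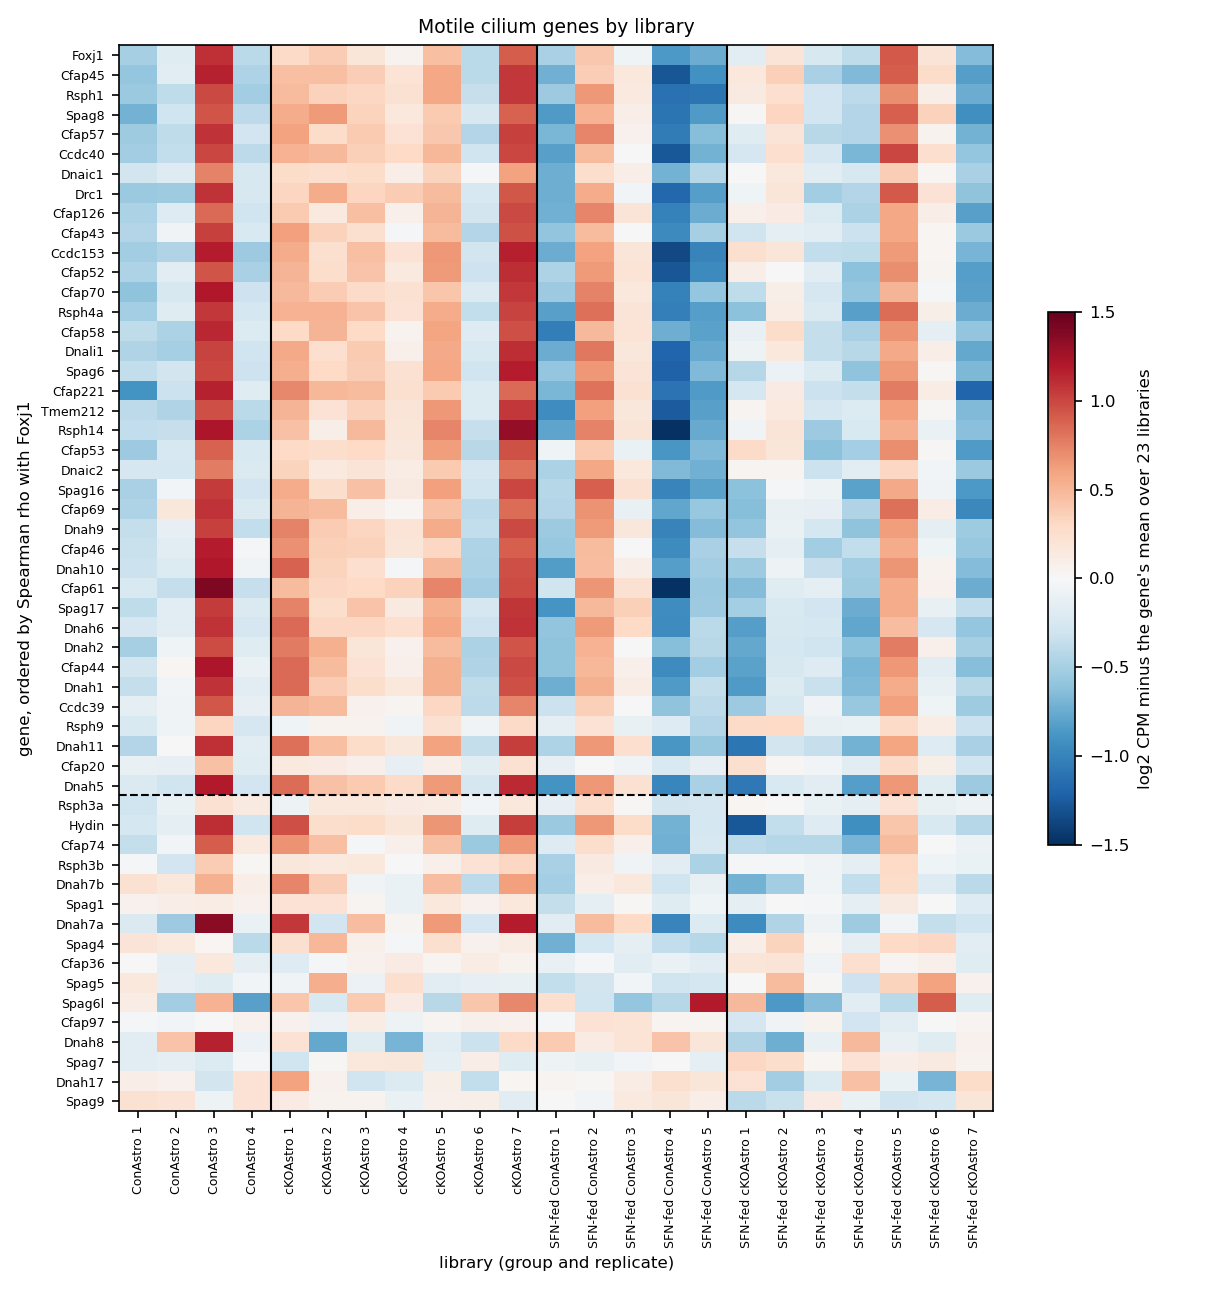
Level of the 54 tested motile cilium genes (rows) in 23 libraries (columns, grouped by genotype and diet), as log2 CPM minus the gene's mean over the libraries. Rows are ordered by Spearman rho with Foxj1 and the dashed line marks a rho of 0.8. Most rows above the line share the same pattern, with ConAstro replicate 3, cKOAstro replicate 7 and SFN-fed cKOAstro replicate 5 high and SFN-fed ConAstro replicates 4 and 5 low, while the lowest rows do not.

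Foxj1 varied more between mice of a group than between groups. The ConAstro libraries 1 to 4 stood at 97.1, 121, 292 and 104 CPM. In cKOAstro it measured 104 CPM in the lowest library, 168 in the median and 256 in the highest. Values of 97.3, 181, 131, 75.5 and 81.7 CPM were found for SFN-fed ConAstro replicates 1 to 5. SFN-fed cKOAstro ran from 87.2 through a median of 123 to 259 CPM. ConAstro replicate 3 and SFN-fed cKOAstro replicate 5 stood well above the others of their groups, and all 4 groups overlapped. The means in this order of groups were 153.5 ± 93.0 (SD, n = 4), 169.7 ± 47 (n = 7), 113 ± 43.4 (n = 5) and 143 ± 57.0 CPM (n = 7).

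Ccdc153, a coiled-coil gene used as an ependymal marker, was high in the same libraries of ConAstro and SFN-fed cKOAstro as Foxj1. It held 49.9, 52.3, 162 and 49.1 CPM in ConAstro replicates 1 to 4, from 59.2 to 161 (median 97.9) in cKOAstro, 42.8, 109, 81.3, 28.1 and 35.9 in SFN-fed ConAstro replicates 1 to 5, and from 44.3 to 111 (median 73.0) in SFN-fed cKOAstro. Here too replicate 3 was the library that carried the ConAstro mean of 78.3 ± 55.6 CPM (SD, n = 4), while the means of the 3 other groups, in the order given, were 101 ± 31.9 (n = 7), 59.3 ± 34.3 (n = 5) and 72.3 ± 22.8 CPM (n = 7).

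Tmem212, Drc1 and Ccdc40 were also highest in replicate 3 among the ConAstro libraries. Tmem212, a membrane protein gene of ciliated cells, was 18.5, 17.8, 47.4 and 18.3 CPM in the ConAstro replicates and 12.8, 37.1, 27.2, 10.2 and 13.8 CPM in the SFN-fed ConAstro replicates, with 20.9 to 50.6 in cKOAstro (median 30.9) and 15.3 to 37.0 in SFN-fed cKOAstro (median 24.5). Drc1, a subunit of the nexin-dynein regulatory complex, was 12.3, 12.6, 38.6 and 15.4 CPM in ConAstro, 15.4 to 34.7 in cKOAstro (median 23.7), 10.9, 26.7, 17.7, 8.05 and 10.2 in SFN-fed ConAstro and 11.9 to 34.3 in SFN-fed cKOAstro (median 17.4). Ccdc40, which with Ccdc39 encodes the ruler that sets the axonemal repeat, was 17.8, 19.8, 51.3 and 19.4 CPM in ConAstro, 20.8 to 51.1 in cKOAstro (median 35.8), 14.5, 35.4, 25.5, 10.5 and 15.7 in SFN-fed ConAstro and 15.8 to 51.3 in SFN-fed cKOAstro (median 21.5). In each of them SFN-fed ConAstro replicate 4 was the lowest of the 23 libraries.

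Ccdc39 ranged less, from 13.0 CPM in SFN-fed ConAstro replicate 4 to 37.7 in ConAstro replicate 3, with group means of 23.2 ± 9.69 (SD, n = 4), 24.2 ± 5.97 (n = 7), 17.8 ± 4.90 (n = 5) and 17.9 ± 6.00 CPM (n = 7) in the order above. Dnali1, a light chain of the inner dynein arms, had means of 27.9 ± 16.6, 35.7 ± 10.95, 23.4 ± 14.0 and 25.2 ± 7.81 CPM (SD) in the same order and numbers of libraries. Hydin, a giant protein of the central apparatus whose loss gives hydrocephalus, had means of 44.6 ± 24.8, 54.3 ± 16.8, 37.2 ± 15.3 and 29.9 ± 11.1 CPM. Its lowest library was SFN-fed cKOAstro replicate 1 at 15.7 CPM, where Ccdc153 stood at 84.8 CPM.

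**Figure D2:**
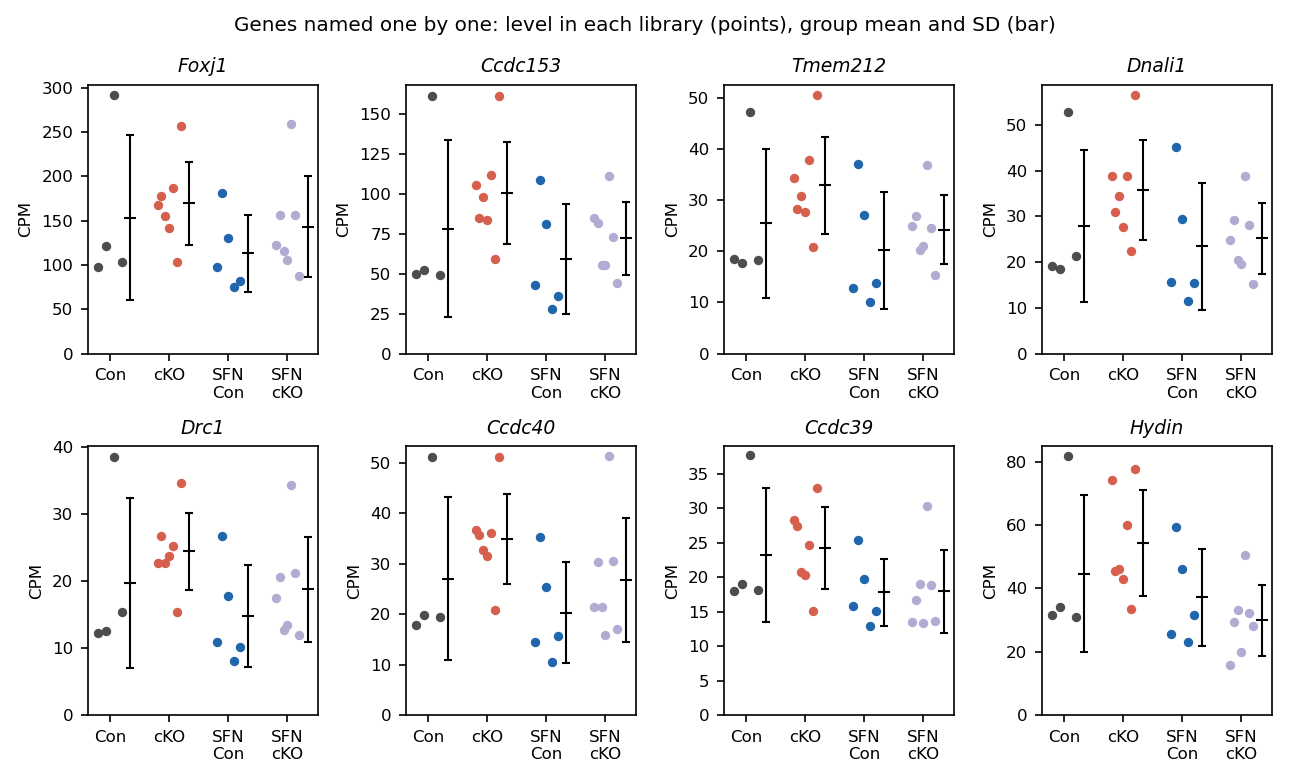
Level in CPM of the 8 genes named one by one, in each library (points) of ConAstro (Con), cKOAstro (cKO), SFN-fed ConAstro (SFN Con) and SFN-fed cKOAstro (SFN cKO), with the group mean and SD beside the points. In every panel the groups overlap and ConAstro replicate 3 stands at 292 CPM for Foxj1 or at a like height above the 3 other ConAstro libraries.

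A larger set of members was also summed in each library. It was chosen for following Foxj1 in these same libraries, so its sum follows Foxj1 by selection. The summed level of Foxj1 and the 37 members that followed it most closely (defined below by a Spearman rho of at least 0.8) was 765.9, 872.6, 2192 and 827.7 CPM, on totals without TMM scaling, in ConAstro replicates 1 to 4, and 671.3, 1540, 1087, 515.5 and 665.8 in SFN-fed ConAstro replicates 1 to 5. In cKOAstro the sum lay between 787.5 and 2130 with a median of 1293, and in SFN-fed cKOAstro between 649.8 and 1622 with a median of 844.3. The sum over all 57 members also holds Spag9, which alone held 472 to 726.5 CPM and did not share the pattern. In ConAstro replicates 1 to 4 that sum was 1724, 1812, 3150 and 1782 CPM on the same totals. In bulk libraries, more cells of a type and more RNA per cell cannot be told apart.

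The members moved together from mouse to mouse. Across 23 libraries the log2 CPM of Foxj1 correlated with that of Ccdc40 (Pearson r = 0.969, Spearman rho = 0.959), Drc1 (0.965 and 0.958), Ccdc153 (0.947 and 0.951), Dnali1 (0.945 and 0.944), Tmem212 (0.938 and 0.939), Ccdc39 (0.907 and 0.861) and Hydin (0.775 and 0.777). Each of these 7 relations had a two-sided permutation p of 3e-05 or 1e-05 for r, the latter being the smallest that 100000 permutations can give, with Benjamini-Hochberg adjusted values of at most 3e-05 over the 7 pairs. Without ConAstro replicate 3 and SFN-fed cKOAstro replicate 5, the 2 libraries farthest from the median of Foxj1, r ran from 0.738 (Hydin) to 0.966. With the group means removed it ran from 0.843 to 0.970, so the relation did not rest on differences between groups. Among the 17 libraries whose names start with a number r was 0.797 to 0.974, and among the 6 whose names start with Astro it was 0.858 to 0.970. The genes were chosen as one family, so these values describe how tightly it moved in these mice.

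**Figure D3:**
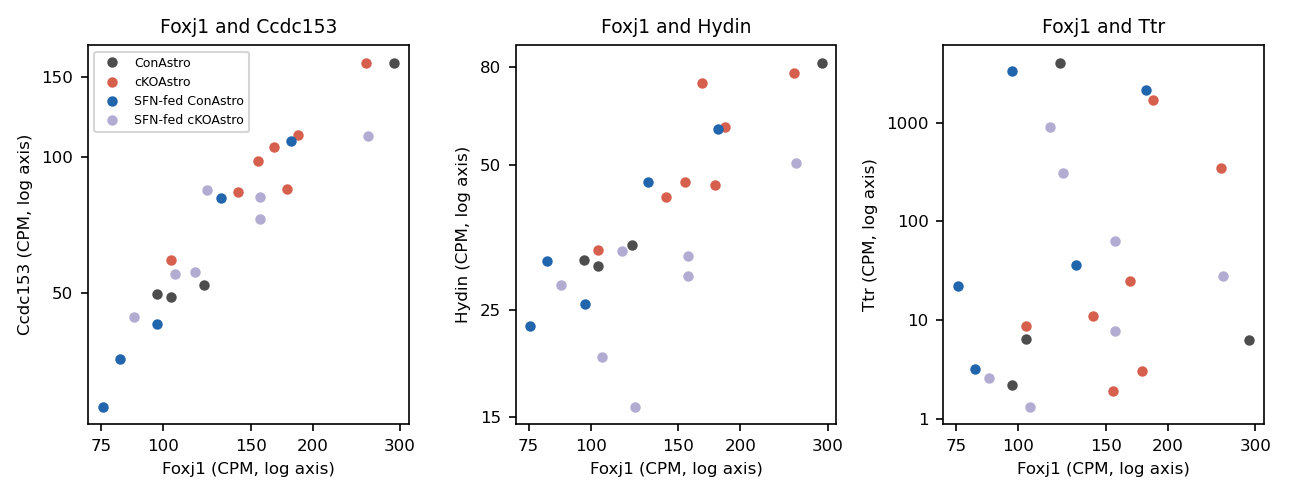
Foxj1 against Ccdc153, Hydin and the choroid plexus gene Ttr in 23 libraries, in CPM on log axes, coloured by group. Ccdc153 follows Foxj1 closely, and Hydin follows it less closely and is lowest in SFN-fed cKOAstro replicate 1. Ttr spreads from 1.33 to 4029 CPM, with a Spearman rho of 0.254 with Foxj1.

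Of the 53 other members tested, 37 (69.8%) had a Spearman rho of at least 0.8 with Foxj1 over the 23 libraries, against 583 of 17301 genes tested (3.37%). The median rho was 0.893 over the members and -0.037 over all genes tested. The member just inside the limit was Dnah5 at 0.848, and those just outside it were Hydin and Rsph3a at 0.777. Members that followed Foxj1 included the 3 dynein intermediate or light chains, the 3 genes of the ruler and regulatory complex, 3 of 5 outer and 4 of 6 inner arm heavy chains, 4 of 6 tested radial spoke genes, 6 of 9 central apparatus genes and 14 of 16 other cilium genes. Their highest library exceeded their lowest by a median of 4.36 times, against 1.87 times for all genes tested. They were chosen in these same libraries for following Foxj1, which varied 3.87 times, so this contrast is partly set by the choice.

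The remaining 16 members, including all 5 tested sperm-associated antigens that act outside the axoneme, varied by a median of 2.15 times. Among them Hydin, Rsph3a, Cfap74, Rsph3b, Dnah7b, Spag1, Dnah7a and Spag4 shared the pattern in part, with a rho of 0.595 to 0.777. Spag9 went the other way (rho = -0.559) and was lower in ConAstro replicate 3 (595 CPM) than in the 3 other ConAstro libraries (721 to 731 CPM). Cfap36, whose product binds the small GTPase ARL3, stayed between 50.1 and 68.3 CPM (rho = 0.348). Spag7, an RNA-binding protein gene, stayed between 34.2 and 52.2 CPM (rho = -0.119), and Spag5, a gene of the mitotic spindle, between 9.42 and 18.5 CPM (rho = 0.23). Dnah17 (1.23 to 3.04 CPM, rho = -0.421) and Dnah8 (1.04 to 3.97 CPM, rho = -0.117), the heavy chains known from sperm, did not follow Foxj1 at this limit either. A Cfap or Spag name alone thus did not place a gene among those that moved together.

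The 10 genes outside the rule whose pattern was most like the mean standardised level of the 8 named genes had rho from 0.985 to 0.995 over 23 libraries. They were Armc4, an outer dynein arm docking gene, Ak7, an adenylate kinase of cilia, Fam216b, 2410004P03Rik, Ulk4, Eno4, Iqcg, Scnn1a, Ttc34 and Vit. The best of them, Armc4, ranged from 3.97 to 19.4 CPM. Of 27 ependymal marker genes that the rule did not match, 23 had a rho of at least 0.8 with Foxj1 (median 0.948), such as Enkur at 7.37 to 36.2 CPM and Rarres2, a secreted protein of ependymal cells, at 24.4 to 78.8 CPM.

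Genes upstream of motile cilia divided. Among 8 tested regulators of multiciliated cells, Myb, Rfx2 and Trp73 followed Foxj1 and Gmnc, Ccno, Rfx3, E2f4 and E2f5 did not reach the limit. Mcidas and Cdc20b, which act while multiciliated cells form, stayed under 1 CPM in every library. Among 30 genes of the primary cilium and of intraflagellar transport, 8 followed Foxj1 at that limit (Ift22, Ift74, Ift80, Ift81, Ift88, Ift172, Dync2li1 and Ttc8), with a median rho of 0.652 over the list, and their summed level ran only from 850.6 to 1116 CPM.

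Markers of other cell types were compared in the same way. None of 10 astrocyte genes reached a rho of 0.8 with Foxj1 (median -0.253), and their summed level was 15320 to 30770 CPM, with Aqp4 at 388.6 to 933.7 CPM in every library. Choroid plexus genes did not reach it either (10 genes, median 0.316). Ttr, which encodes transthyretin and is the most abundant transcript of the choroid plexus, was high in a few libraries, at 4029 CPM in ConAstro replicate 2, 1695 in cKOAstro replicate 5, 349.5 in cKOAstro replicate 7, 3308 and 2132 in SFN-fed ConAstro replicates 1 and 2, 309.8 in SFN-fed cKOAstro replicate 1 and 906 in SFN-fed cKOAstro replicate 3. In ConAstro replicate 3, the library with the most Foxj1, Ttr was 6.30 CPM. Among the libraries high in Ttr, cKOAstro replicate 7 and SFN-fed ConAstro replicate 2 also had the highest summed level of cilium genes in their groups, at 2130 and 1540 CPM, and the highest rho of a choroid plexus gene with Foxj1 was 0.765.

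For the remaining lists the median rho with Foxj1 was 0.417 for subventricular zone neuroblasts and progenitors (10 genes, of which Dlx2 reached 0.844), 0.081 for neurons (8 genes), -0.142 for microglia (6), -0.174 for oligodendrocytes (6), -0.284 for oligodendrocyte precursors (4), -0.416 for endothelium (5) and -0.225 for mural cells and fibroblasts (8). Over the libraries the summed levels ran from 100.5 to 177.2 CPM, 189.7 to 862.3, 239.5 to 2628, 18950 to 49430, 75.4 to 287.5, 138.9 to 599.1 and 352.1 to 941.4 CPM in that order. Of their genes Dlx5 alone was under 1 CPM in every library.

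Promoter sequence was examined because the members moved together. RefSeq promoter windows on GRCm38.p6 (250 bases before and 50 after the start of the gene, 300 in all) were at hand for 49 of the 57 members and not for Foxj1. The windows of 4 members that hold the core RFX motif and of Cfap36, which holds none, are shown 5′ to 3′ on the strand of the gene, with the letters GTTGCC or, for the other strand, GGCAAC in capitals. They lie at chr9:44240427-44240726 (plus strand) for Ccdc153, chr5:30281143-30281442 (plus) for Drc1, chr8:110266727-110267026 (plus) for Hydin, chr5:124724835-124725134 (plus) for Dnah10 and chr11:29247223-29247522 (minus) for Cfap36.
Ccdc153: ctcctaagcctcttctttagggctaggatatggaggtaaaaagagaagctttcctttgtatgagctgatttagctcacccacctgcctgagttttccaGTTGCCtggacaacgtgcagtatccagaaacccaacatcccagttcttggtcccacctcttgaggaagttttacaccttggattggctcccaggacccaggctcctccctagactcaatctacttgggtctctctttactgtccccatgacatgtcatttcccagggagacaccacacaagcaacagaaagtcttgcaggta
Drc1: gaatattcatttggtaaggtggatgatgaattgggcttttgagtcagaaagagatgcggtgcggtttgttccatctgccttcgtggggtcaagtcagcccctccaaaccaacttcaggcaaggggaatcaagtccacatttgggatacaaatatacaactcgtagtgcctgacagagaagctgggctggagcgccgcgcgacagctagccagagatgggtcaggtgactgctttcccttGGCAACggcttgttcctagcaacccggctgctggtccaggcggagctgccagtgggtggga
Hydin: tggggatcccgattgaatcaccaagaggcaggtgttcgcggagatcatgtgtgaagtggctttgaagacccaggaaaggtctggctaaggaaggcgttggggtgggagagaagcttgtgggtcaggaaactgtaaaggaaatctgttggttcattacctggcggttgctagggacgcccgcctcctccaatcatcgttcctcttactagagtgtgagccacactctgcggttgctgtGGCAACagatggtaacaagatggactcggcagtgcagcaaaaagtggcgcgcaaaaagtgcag
Dnah10: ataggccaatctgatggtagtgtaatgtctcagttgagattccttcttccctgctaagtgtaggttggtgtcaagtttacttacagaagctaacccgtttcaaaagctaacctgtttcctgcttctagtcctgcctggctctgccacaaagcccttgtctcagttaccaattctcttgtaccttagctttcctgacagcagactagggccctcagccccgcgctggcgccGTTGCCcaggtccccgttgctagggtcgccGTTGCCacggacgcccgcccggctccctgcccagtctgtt
Cfap36: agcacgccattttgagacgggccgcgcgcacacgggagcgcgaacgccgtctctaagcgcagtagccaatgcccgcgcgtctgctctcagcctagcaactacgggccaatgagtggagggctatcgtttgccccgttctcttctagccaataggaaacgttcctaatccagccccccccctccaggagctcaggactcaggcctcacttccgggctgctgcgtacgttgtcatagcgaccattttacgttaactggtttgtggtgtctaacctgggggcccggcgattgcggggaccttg

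The core motif occurred in the windows of 17 of 49 members (34.7%), against 3821 of 27025 symbols in the promoter table (14.1%). A longer form, in which any 2 bases and then GG follow the core, occurred in 6 members (12.2%) against 2.59% of symbols, and the forkhead motif TGTTTAC or GTAAACA in 3 members (6.12%) against 4.05%. The core motif lay in 11 of 34 windows (32.4%) of members that followed Foxj1 and in 6 of 14 (42.9%) of tested members below the limit. Among genes outside the rule it occurred in 125 of 391 (32.0%) with a rho of at least 0.8 and in 1770 of 12375 (14.3%) of the rest. Genes had 1.22 and 1.26 windows on average in these sets. These letters were chosen with results of these data known, and a match is only a run of letters in the window.

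The comparison of cKOAstro with ConAstro asks what loss of ALDH7A1 does on the control diet. Of 54 members tested 0 passed an adjusted p of 0.05 (edgeR quasi-likelihood test, lowest adjusted p = 0.98), where 4 of 17406 genes did (0.023%). The fold change was above 0 in 51 members and below it in 3, with a median log2 fold change of 0.20 against -0.0072 over all genes. At an unadjusted p under 0.05, 0 members were higher and 1 lower, against 1.71% and 2.03% of all genes, and no member had groups that did not overlap (0.494% of all genes). The members with the lowest p were Dnah8 (-0.63 ± 0.28, log2 and SE), Spag9 (-0.13 ± 0.076) and Spag8 (0.38 ± 0.30), each with an edgeR adjusted p of 0.98, and Foxj1 differed by 0.14 on the log2 scale.

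This median moved with single mice. Without ConAstro replicate 3 it was 0.67, and 37 members were higher at an unadjusted p under 0.05 (1075 of 17776 genes were), still with 0 past an adjusted p of 0.05 (edgeR, lowest 0.39). Without any 1 of the 3 other ConAstro libraries it was 0.077 to 0.11, and without cKOAstro replicate 7 it was 0.11. Limma-voom with sample quality weights, which gives less weight to a library that departs from its group, gave a median of 0.47 with 16 members higher at an unadjusted p under 0.05 (841 of 17406 genes were) and 0 adjusted calls. Without cKOAstro replicate 2, the library with Xist, the median was 0.22. The 4 ConAstro libraries share a name prefix that no cKOAstro library has, so prefix and genotype cannot be told apart here.

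On the SFN diet the same genotype comparison gave a median of 0.07 over 53 members tested, 35 higher and 18 lower. None passed an adjusted p of 0.05 (edgeR, 0% of all genes did), and 4 were higher and 1 lower at an unadjusted p under 0.05, below the 11.4% and 8.89% of all genes. The 4 were Spag7 (0.23 ± 0.063), Spag4 (0.48 ± 0.15), Spag5 (0.44 ± 0.14, each with an edgeR adjusted p of 0.195) and Cfap36, none of which followed Foxj1, and the 1 was Cfap97. Spag7 alone had groups that did not overlap (1.23% of all genes), at 39.9, 38.9, 41.0, 42.1 and 37.9 CPM in SFN-fed ConAstro replicates 1 to 5 and 42.9 to 52.2 (median 46.1) in SFN-fed cKOAstro. Foxj1 differed by 0.34 ± 0.27.

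Without the 2 libraries that go against their labels the median was -0.026 with 23 members higher and 30 lower, and among numbered libraries alone it was -0.191. With the name prefix as a covariate it was 0.57 with 49 of 53 members higher and 14 of them at an unadjusted p under 0.05, all with an edgeR adjusted p of at least 0.956. Within prefixes it was 0.41 for 147 (1 library against 2) and 0.62 for Astro (3 against 1, the 1 being the library labelled SFN-fed ConAstro replicate 1). The direction of the members on this diet therefore depended on which libraries were compared. DESeq2 called 1 member and limma-voom with sample quality weights 7, beside 250 and 4398 genes in all.

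The next question was what SFN does to each genotype. Among control mice, 50 of 54 members were lower on SFN with a median of -0.33, against -0.0055 over all genes. None passed (edgeR, lowest adjusted p = 0.76, 0% of all genes), and 0 were higher and 2 lower at an unadjusted p under 0.05, against 3.54% and 3% of all genes. Spag1, a dynein arm assembly factor, measured 26.4, 27.1, 27.2 and 26.4 CPM in ConAstro and 19.6, 22.8, 25.5, 22.2 and 24.1 in SFN-fed ConAstro, a log2 difference of -0.24 ± 0.077 (edgeR adjusted p = 0.76), and was the only member whose groups did not overlap (1.93% of all genes). Dnah7b (-0.38 ± 0.15) and Spag4 (-0.38 ± 0.18) had the next lowest p with edgeR adjusted p-values of 0.76 and 0.77, and Foxj1 differed by -0.45. Without ConAstro replicate 3 the median turned to 0.093 with 38 of 54 members higher. It was -0.23 when replicate 1 of SFN-fed ConAstro, which goes against its label, was left out, -0.61 without replicate 2 and -0.20 without replicate 4 of that group. The 2 groups share no name prefix, so prefix and diet cannot be told apart here.

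In cKOAstro the SFN diet went with the lowest median among the comparisons, -0.44 over 54 members (49 lower, 5 higher) against 0.0061 over all genes. None passed (edgeR, lowest adjusted p = 0.46, 0% of all genes), and 29 members were lower and 1 higher at an unadjusted p under 0.05, against 5.5% and 5.38% of all genes. The members moved together, so these 29 are not independent observations. By role, 6 of 6 inner and 3 of 5 outer arm heavy chains, 3 of 3 intermediate or light chains, 6 of 9 central apparatus, 2 of 6 radial spoke, 1 of 3 ruler and regulatory complex, 7 of 16 other cilium genes and 1 of 5 sperm-associated antigens were among them. Foxj1 was not, at -0.24 on the log2 scale.

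The 3 members with the lowest p were large genes. Dnah7a, an inner arm heavy chain, measured 2.81 to 7.76 CPM (median 4.74) in cKOAstro and 1.78 to 3.33 (median 2.67) in SFN-fed cKOAstro, a log2 difference of -0.87 ± 0.24. Dnah6, another inner arm heavy chain, measured 47.9 to 125 CPM (median 73.7) and 33.5 to 82.0 (median 49.6), a difference of -0.79 ± 0.22. Hydin measured 33.4 to 77.7 CPM (median 46.1) and 15.7 to 50.5 (median 29.4), a difference of -0.86 ± 0.24. Each had an edgeR adjusted p of 0.46, and each overlapped between the groups, as did every member (0.0947% of all genes did not).

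Leaving out single libraries moved this median between -0.31 (without cKOAstro replicate 7) and -0.61 (without SFN-fed cKOAstro replicate 5). Those 2 fits had the fewest and the most members lower at an unadjusted p under 0.05. The counts were 13 (518 of 16912 genes) and 42 (1132 of 17009 genes). The median was -0.44 without replicate 2 of SFN-fed cKOAstro, which goes against its label, and -0.45 without cKOAstro replicate 2. Among numbered libraries it was -0.699 with 40 members lower at that p (1185 of 17047 genes were). There the 2 groups share no prefix, so prefix and diet cannot be told apart. The 3 cKOAstro libraries with prefix 141 had summed levels of 1509 to 2130 CPM and the 2 with prefix 146 had 787.5 to 1244 CPM, and no SFN-fed library has either prefix. With the name prefix as a covariate the median was -0.091. In that fit 0 members were lower at an unadjusted p under 0.05 (542 of 16903 genes were). Only the Astro prefix holds libraries of both groups, so that difference rests on the Astro libraries. Within the Astro libraries alone (3 against 2) the median was -0.082 and Foxj1 stood 0.13 higher. The 2 include cKOAstro replicate 2, the library with Xist.

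In SFN-fed cKOAstro against ConAstro the median was -0.22 (47 of 54 lower) against -0.014 over all genes, with 0 members called (edgeR, lowest adjusted p = 0.56, 0% of all genes). At an unadjusted p under 0.05, 1 was higher and 4 lower, against 4.01% and 4.66% of all genes. Spag7 was higher by 0.28 ± 0.071 and its groups did not overlap (1.45% of all genes), while Dnah7b (-0.53 ± 0.17) and Spag9 (-0.30 ± 0.13) were lower, as were Spag1 and Dnah7a, each with an edgeR adjusted p of 0.56. Without ConAstro replicate 3 the median was 0.15, within prefix 143 (3 libraries against 4) it was -0.34, and with replicate 2 of SFN-fed cKOAstro left out it was -0.24. The comparisons share control libraries and are not independent of each other.

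**Figure D4:**
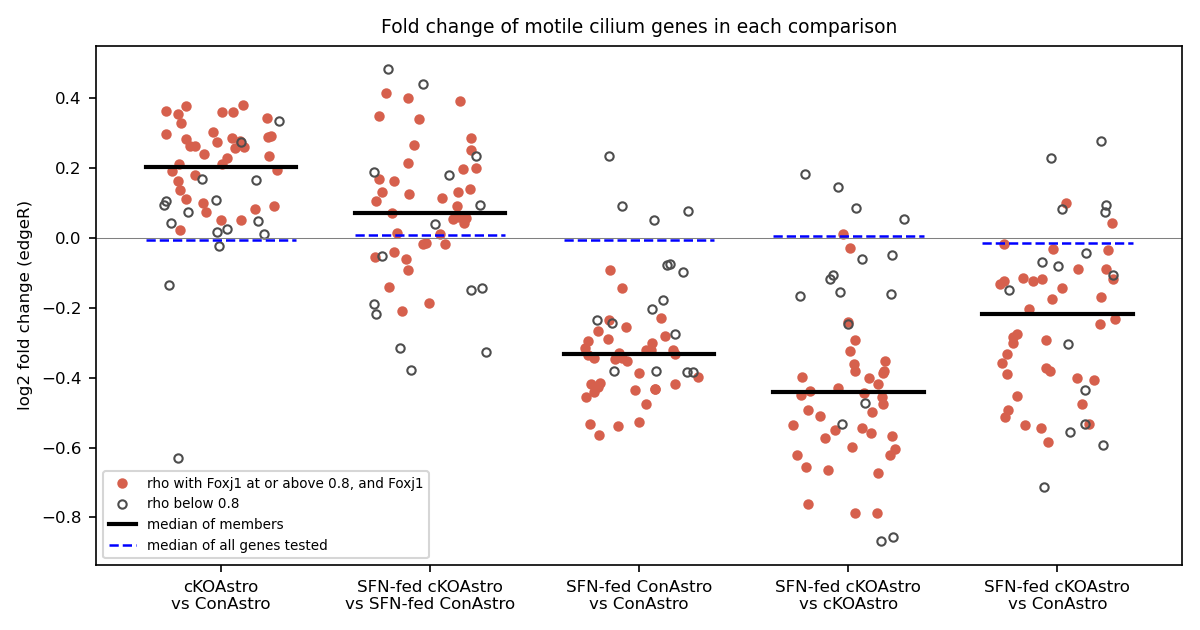
Log2 fold change (edgeR) of each tested motile cilium gene in the 5 comparisons of groups. Filled points are Foxj1 and the members with a rho of at least 0.8 with it, open points the others, black bars the median of members and dashed bars the median of all genes tested. The members sit above 0 in cKOAstro against ConAstro (median 0.20) and below 0 in SFN-fed cKOAstro against cKOAstro (median -0.44), and no point passed an adjusted p of 0.05.

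The interaction of genotype and diet, which asks whether SFN acted differently in the genotypes, called 0 of 54 members (edgeR, lowest adjusted p = 0.67, 0% of all genes) with a median of -0.11. At an unadjusted p under 0.05, 0 members were higher and 1 lower, against 4.36% and 2.96% of all genes. The lowest p were those of Cfap97 (-0.22 ± 0.0998), Spag5 (0.34 ± 0.21) and Spag4 (0.31 ± 0.20), with edgeR adjusted p-values of 0.67, 0.70 and 0.72, and Foxj1 stood at 0.20. With the name prefix as a covariate the median was 0.896. In that fit cKOAstro shares a prefix with other groups only through the Astro libraries. These include cKOAstro replicate 2 and SFN-fed ConAstro replicate 1, and the prefix fit was not run without them. Without ConAstro replicate 3 the median was -0.55. It turned to 0.13 without SFN-fed ConAstro replicate 2 and to 0.019 without ConAstro replicate 1. Without the 2 libraries whose Aldh7a1 goes against the label it was -0.19, and without cKOAstro replicate 2 -0.13.

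The spread between mice was wide for these genes. The median of the members' deviations had a pooled SD within groups of 0.466 on the log2 scale. That is a spread of single libraries and not the error of a difference between groups. The largest median difference between groups was -0.44, in SFN-fed cKOAstro against cKOAstro. There the SE of the log2 difference had a median of 0.215 over the members and 0.124 over all genes tested. The biological coefficient of variation, edgeR's estimate of the spread between libraries of a group, had a median of 0.355 over the members and 0.165 over all genes tested, and the median percentile of members among all genes was 80.03. Cfap36 (0.096), Spag7 (0.10) and Spag9 (0.12) lay below the median of all genes, and Foxj1 (0.35), Hydin (0.36) and Ccdc153 (0.41) above it.

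The fixed lists gave the same counts of calls. In each comparison 0 genes of the 27 ependymal markers outside the rule, of the 8 tested multiciliation regulators, of the 30 primary cilium genes and of the 10 choroid plexus genes passed an adjusted p of 0.05 (edgeR). The ependymal markers had medians of 0.30, 0.22, -0.33, -0.42 and -0.10 in the 5 comparisons in the order above, with 27, 25, 0, 2 and 4 of 27 genes higher, and 9 of them were lower at an unadjusted p under 0.05 in SFN-fed cKOAstro against cKOAstro. The primary cilium genes had medians of 0.053, 0.064, -0.11, -0.093 and -0.047. Choroid plexus medians were -1.27, -1.70, -0.13, -0.65 and -2.01, each carried by a few libraries. Of the other lists 1 gene passed in 1 comparison, the astrocyte gene Slc1a3, whose allele carries CreER.

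Lists of other cell types also had medians away from 0 in the comparison where the members were lowest, with 0 genes past an adjusted p of 0.05 (edgeR). In SFN-fed cKOAstro against cKOAstro, 8 of 8 mural and fibroblast genes were lower (median -0.39, 3 at an unadjusted p under 0.05), with summed levels of 352.1 to 884.8 CPM against 581.4 to 858.5 CPM. All 6 oligodendrocyte genes were higher (median 0.33), with 21230 to 49430 against 19590 to 27700 CPM. All 5 endothelial genes were higher (median 0.35), and 4 of 4 oligodendrocyte precursor genes (-0.28), 10 of 10 choroid plexus genes (-0.65), 5 of 6 microglial genes (-0.20) and 9 of 10 genes of the subventricular zone (-0.16) were lower, while neuronal and astrocyte genes had medians of 0.044 and -0.066. Such shifts were also present where the members had a median of 0.07: in SFN-fed cKOAstro against SFN-fed ConAstro, 8 of 8 mural and fibroblast genes were lower (median -0.57, 6 at an unadjusted p under 0.05), as were 5 of 5 endothelial genes (-0.68, 3 at that p). Their part in the result for the cilium genes was not tested.

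Beside these differences, long and short members departed from each other in some libraries. Among Foxj1 and the 37 members that followed it, 13 have under 3000 bases of exon (Tmem212 with 716 the shortest) and 9 have at least 9000 (Dnah10 with 16086 the longest). In SFN-fed cKOAstro replicate 1 the median log2 deviation from the mean of the libraries was 0.042 for the short and -0.77 for the long members, a gap of -0.81, and the gap was -0.39, -0.22 and -0.21 in SFN-fed cKOAstro replicates 2, 4 and 6. In cKOAstro replicate 1 it was 0.35 in the other direction, and in the other 18 libraries it lay between -0.14 and 0.32. The rank correlation of deviation with exon length over those 38 genes was -0.809 in SFN-fed cKOAstro replicate 1, and over 16627 genes tested with a known length it was -0.419 there, the lowest of the 23 libraries. Longer transcripts thus tended to be lower in that library over all genes as well, and Hydin, with 18037 bases of exon, was at 15.7 CPM there.

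**Figure D5:**
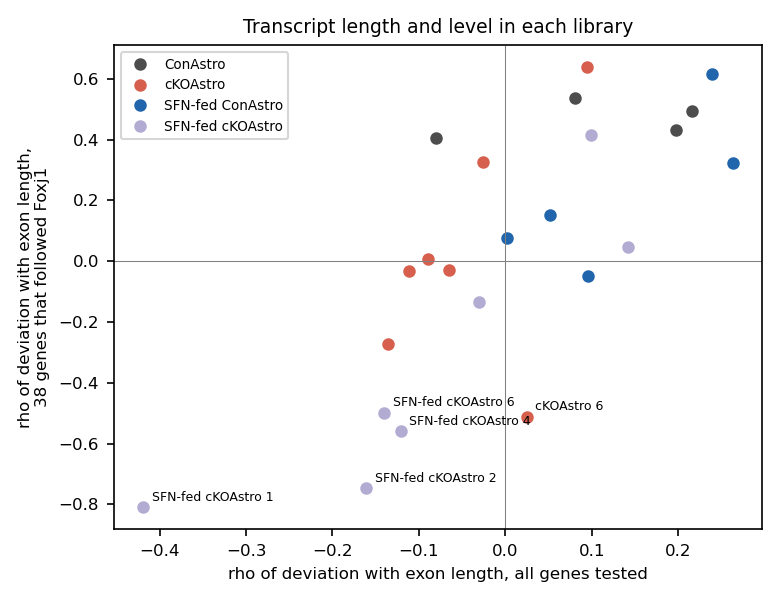
Rank correlation, in each of 23 libraries, between exon length and the deviation of a gene's log2 CPM from its mean over the libraries, for all genes tested (x axis) and for Foxj1 and the 37 members that followed it (y axis). SFN-fed cKOAstro replicate 1 lies at -0.419 and -0.809, and the libraries below -0.45 on the y axis are named.

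A tilt with length was also present in the fold changes of these genes. In SFN-fed cKOAstro against cKOAstro the median was -0.40 for the 13 short and -0.62 for the 9 long members, and in SFN-fed cKOAstro against SFN-fed ConAstro it was 0.21 and -0.054, so that the 2 kinds of member differed in sign. Over the 38 genes the rank correlation of fold change with length was -0.63 and -0.702 in these comparisons, and over all genes tested -0.184 and -0.289. Without SFN-fed cKOAstro replicate 1 the median over all members was -0.42 in the first and 0.11 in the second. Against ConAstro, the rank correlation over the 38 genes was -0.509 for cKOAstro, -0.436 for SFN-fed ConAstro and -0.804 for SFN-fed cKOAstro. Over all genes tested it was -0.178, 0.0905 and -0.264 in that order, so for SFN-fed ConAstro the 2 values differed in sign. For the interaction it was -0.348 over the 38 genes and -0.176 over all genes tested. What part of the difference in the heavy chains and Hydin goes with transcript length was not tested.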

How the data were processed

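The authors deposited 1 table of raw read counts per gene symbol for 23 libraries of poly(A) RNA, sequenced as paired ends. Per the submitters' processing notes reads were checked with FastQC and aligned with STAR to mm10; versions, annotation and strand setting are not given in the sources used here. Libraries were grouped by their labels. Counts were tested with edgeR 4.0.16 (quasi-likelihood test, TMM, filterByExpr with a minimum count of 10 and total of 15, Benjamini-Hochberg over all genes tested, threshold 0.05), with 2 groups in each fit and all 4 for the interaction. DESeq2 1.42.0 and limma 3.58.1 were alternatives. Levels are TMM-scaled CPM, per kilobase of exon union where genes are compared, and correlations used log2 CPM with a prior count of 2. A total of 3 counts was taken as the floor, which covers counting error only. Scripts were tested on simulated data. Labels do not say whether libraries share litters, so p-values measure the spread between these libraries. Genes named were the 8 named by the rule, the 2 most abundant tested members of each role, the 3 lowest p in each comparison and the 10 most similar other genes; the rest named were chosen after their values were seen. Members and lists were chosen with earlier results of these data known.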

Additional observations from a re-analysis of the deposited data

Results flagged for a closer look

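Of 76 pairs of gene and group examined, 27 had a library far from the others of its group by Dixon's criterion, which chance meets in about 1 of 20 groups, and since the genes move together these are not independent. ConAstro replicate 3 stood apart for 17 of 19 genes. It was the highest of its group for Foxj1 (292.1 CPM, others 97.1 to 121.1), Ccdc153 (161.7), Tmem212 (47.43), Hydin (81.71), Ccdc39 (37.73), Ccdc40 (51.25), Drc1 (38.59), Dnali1 (52.74), Cfap46 (71.16), Dnah6 (125.7), Dnah10 (113.5), Dnah9 (95.74), Dnah5 (88.12), Dnaic2 (43.69), Rsph1 (73.72) and Rsph4a (73.38), and the lowest for Spag9 (595.1 CPM, others 721.4 to 731.4). SFN-fed cKOAstro replicate 5 was the highest of its group for Foxj1 (258.9 CPM, others 87.19 to 156.7), Ccdc39 (30.33), Ccdc40 (51.32), Drc1 (34.29), Cfap46 (46.43), Dnah6 (81.97), Dnah10 (78.41), Dnah9 (72.26), Dnah5 (61.08) and Rsph4a (62.79).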

How the results depend on the processing

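Under the main settings 0 members passed an adjusted p of 0.05 in any comparison. In SFN-fed cKOAstro against SFN-fed ConAstro, DESeq2 called 1 member (Spag7) and limma-voom with sample quality weights 7, and leaving out single replicates gave 0 to 1 (the 1 without SFN-fed cKOAstro replicate 3). In SFN-fed cKOAstro against ConAstro limma-voom called 2 of 54 members and 656 of 16753 genes. The name prefix as a covariate was chosen after seeing the data, as were the fits within prefixes. With it the median log2 fold change moved to 0.574 in SFN-fed cKOAstro against SFN-fed ConAstro (0.619 among Astro libraries alone). For the interaction it moved to 0.896. These fits rest on the libraries whose prefix is shared between groups. Foxj1 changed sign in SFN-fed cKOAstro against cKOAstro with the prefix covariate (0.118) and among Astro libraries (0.129), in SFN-fed cKOAstro against ConAstro with limma-voom (0.294), and for the interaction among numbered libraries (-0.157). With single replicates left out Foxj1 ran from -0.0231 to 0.656 in cKOAstro against ConAstro, -0.683 to 0.0683 in SFN-fed ConAstro against ConAstro, -0.313 to 0.414 in SFN-fed cKOAstro against ConAstro and -0.348 to 0.429 for the interaction. The cause was not tested. Correlations of the deviations of same-numbered libraries ran from -0.211 to 0.336. In each comparison at least 1 pair was below 0.1, so the numbers were not taken to pair the libraries. The replicate block changed no call among the members, with medians of 0.269, 0.168, -0.249, -0.452, -0.173 and -0.0712 in the order of the report. Over all genes it cut the calls in cKOAstro against ConAstro from 4 to 1. Members at an unadjusted p under 0.05 went from 30 to 19 in SFN-fed cKOAstro against cKOAstro and from 1 to 0 in cKOAstro against ConAstro. They rose from 5 to 11 in SFN-fed cKOAstro against ConAstro and from 5 to 6 in SFN-fed cKOAstro against SFN-fed ConAstro. Apart from Spag6l, the lowest library of each tested member (0.689 CPM or more) lay above the highest floor of 0.064 CPM.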
